A study of Mus musculus with 12 samples.

Results

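Sh2d7, Slc18a1, Cela1, Hap1 and Muc15 are 5 genes known mainly from tuft, endocrine, pancreatic, neural and mucosal tissue that were listed in a table of thymus RNA. They were taken by symbol from the 479 genes of that table, in which each of them was found once. RNA came from the whole thymus of 12 mice at 1 month of age, 6 of them WT and 6 Axl-/-Mertk-/- (AMDKO in the labels), with 3 males and 3 females of each genotype. The mutants lack the receptor tyrosine kinases Axl and Mer in every cell from the germ line onward, and no agent was given to any mouse. All lines had been backcrossed to C57BL/6, and WT and mutant lines were kept in separate housing, so housing and genotype cannot be told apart. Nothing in the labels ties mice to litters. Single mice are named by genotype and number as in the labels.

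Medullary epithelial cells of the thymus transcribe genes that otherwise belong to distant organs, which lets developing T cells meet the proteins of those organs before they leave. The transcription factor Aire drives part of this expression. Other medullary cells take on much of the program of a peripheral cell, such as the chemosensory tuft cell, the neuroendocrine cell or the mucosal microfold cell. Axl and Mer are best known from macrophages, which use them to recognize and engulf apoptotic cells, and other cells of the thymus can carry them too.

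Of 17 markers of medullary epithelium, only Cd80, a costimulatory ligand that dendritic and B cells also carry, was among the genes analysed. Its level was 2.91 to 5.28 FPKM in WT and 1.98 to 3.31 FPKM in mutant mice (FPKM, fragments scaled to the length of the transcript and to the mapped reads of the library). Aire, Fezf2, Krt5 and Krt14 were not analysed here, and none of 11 markers of cortical epithelium was among the genes. The cells that hold the RNA of the 5 genes were therefore not identified, and the genes are called tissue-restricted below only for the organs in which they are known. In RNA of a whole organ, fewer cells of a type, less RNA per cell and more RNA from other cells cannot be told apart. The paper reports that the mutant thymus at this age was heavier than that of WT mice and held more live cells. It also reports that cortex and medulla took up the same shares of the thymus in both genotypes. A fraction of the medullary epithelial cells, marked by keratin 5, carried Axl in its stainings of WT thymus. The part of these observations in the levels given here was not tested.

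The genotype of the libraries was checked with Axl, which stood at 11.9 to 16.9 FPKM in the 6 WT mice and at 1.92 to 2.45 FPKM in the 6 mutants. Mertk was not analysed here. Depth, worked out from the steps between low values, was 18840000 to 24490000 reads in WT and 19330000 to 23820000 reads in Axl-/-Mertk-/- libraries. Male WT_212 stood apart as the WT mouse with the highest level in 229 genes (47.8%) of the table. It was the highest WT mouse in Cela1, Hap1 and Muc15, and the mutant means of these genes as a percentage of WT are given with and without it. The label of male WT_210 ends in a letter that no other label has, and its meaning was not given in the sources used here.

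The 479 genes were selected by the authors, to all appearance for a difference between these same 12 mice. In a limma fit with sex as a covariate, 455 of them (95.0%) had an adjusted p-value under 0.05 for genotype, and so did 5 of the 5 tissue-restricted genes. The adjusted p-value was passed by 61.8% of the table with a lower level in the mutants, and by 4 of the 5, and by 33.2% with a higher level, and by 1 of the 5. Levels of the genotypes did not overlap in 187 genes of the table (39.0%) and in 2 of the 5. The mutants were below without overlap in 26.3% of the table and in 2 of the 5, and above without overlap in 12.7% and in 0 of the 5. The genotype difference of the 5 genes is thus a description of how they were chosen. No p-value of a single gene is given for it, and counts of genes that passed are given beside those of the table, with nothing read from them. Sex, the difference between the sexes in the genotype effect, and the relation of 1 gene to another within a genotype are other measures than this contrast, although the rule that selected the table is not known and may have weighed the spread between mice.

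Slc18a1, Cela1, Sh2d7 and Hap1 had lower mean levels in Axl-/-Mertk-/- thymus, at 62.0%, 53.6%, 54.9% and 61.9% of WT, and Muc15 had a mean level of 201%. On FPKM, which is scaled for length, Hap1 and Cela1 were the more abundant in both genotypes, and the other 3 genes lay under 1 FPKM in every mouse. In log2(FPKM + 5), the scale of the table, on which differences of low genes shrink, 0 of the 5 genes differed by more than 0.5. That threshold was passed, together with the adjusted p-value, by 6.05% of the table. When the constant 5 was replaced by 0.1, it was passed by 385 of the 479 genes and by 5 of the 5.

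**Figure D1:**
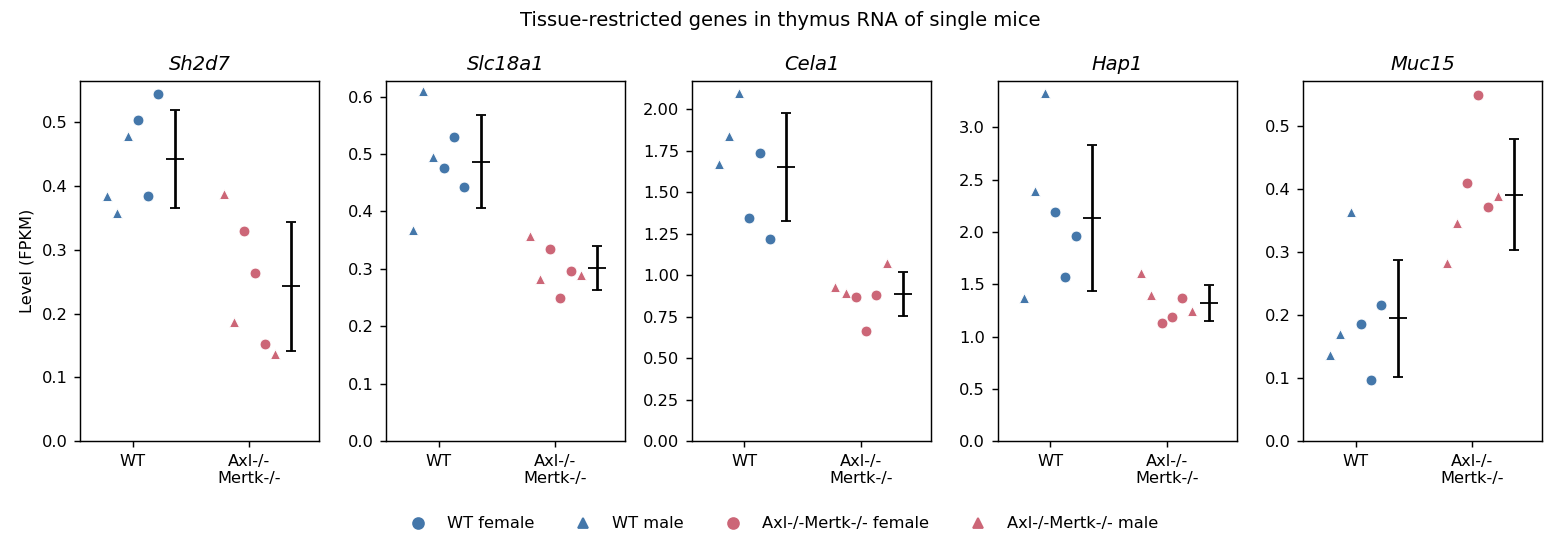
Level in FPKM (vertical axis, each panel with its own range from 0) of the 5 genes in each of 12 mice, WT in blue and Axl-/-Mertk-/- in red, circles for females and triangles for males, with the mean and SD of 6 mice beside the points. All Axl-/-Mertk-/- mice lie below all WT mice for Slc18a1 and Cela1, and 1 WT male lies among the Axl-/-Mertk-/- mice for Muc15.

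Sh2d7 encodes a protein with an SH2 domain and is known as a gene of tuft cells, chemosensory epithelial cells of airway, gut and thymus. It lies on the plus strand of chr9:54538984-54545020 (mm10, GENCODE vM21), has 4 exons, and shares 227 of its 2759 exonic bases with Cib2 on the opposite strand. Whether reads were counted by strand is not given in the sources used here, so reads of the shared bases could be from either gene, as for Muc15 below. Its level in WT mice was 0.358 FPKM at the lowest, 0.432 at the median and 0.544 at the highest. In Axl-/-Mertk-/- mice it was 0.137 FPKM at the lowest, 0.226 at the median and 0.387 at the highest. A single mouse, male AMDKO_202, made the genotypes overlap, and the other 5 mutants lay below every WT mouse. The mean was 0.442 ± 0.0767 FPKM in WT mice and 0.243 ± 0.101 FPKM in the mutants (SD, n = 6 each).

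Behind these values stood few reads, 20 to 36 in a WT library and 8 to 23 in an Axl-/-Mertk-/- library. The SD between WT mice was 0.912 times the SD that counting alone would give at this depth, so a spread among WT mice beyond counting error was not detectable. Among Axl-/-Mertk-/- mice the ratio was 1.58, with males AMDKO_264 and AMDKO_203 and female AMDKO_231 at 8, 10 and 10 reads and male AMDKO_202 and female AMDKO_219 at 23 and 21 reads.

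Of 29 tuft cell markers, 7 others were among the genes analysed. All 7 had a lower mean level in Axl-/-Mertk-/- mice, between 40.6% and 89.8% of WT (median 51.0%), and 6 of them passed the limma test for genotype that 61.8% of the table passed in this direction. In 5 of the 7 the genotypes did not overlap, as in 26.3% of the table in this direction. Gnat3, the G protein subunit gustducin, was at 40.6% and Trpm5, a cation channel of taste transduction, at 46.0% of WT. Ptgs1, a cyclooxygenase, and Rgs13, a regulator of G protein signalling, were both at 51.0%, and the tyrosine kinase gene Bmx was at 58.5%. Avil, an actin-binding protein, was at 65.2% with overlap, and Dclk1, a kinase of the doublecortin family, was at 89.8% with overlap and did not pass. The 7 genes together summed to 6.27 to 9.07 FPKM in WT mice and to 3.05 to 4.85 FPKM in the mutants. This list was read from the same selected table, so its counts are a description like those of Sh2d7.

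**Figure D2:**
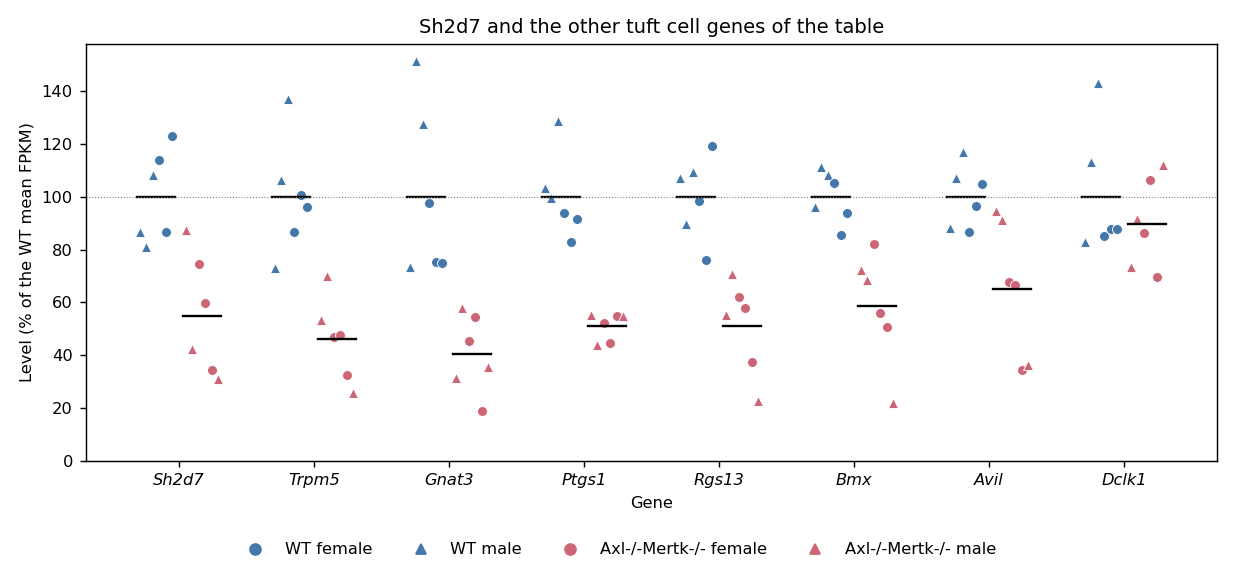
Level of Sh2d7 and of the 7 other tuft cell genes of the table in each mouse, as a percentage of the WT mean of that gene (vertical axis, dotted line at 100), WT in blue and Axl-/-Mertk-/- in red, circles for females and triangles for males, with bars at the genotype means. Axl-/-Mertk-/- means range from 40.6% for Gnat3 to 89.8% for Dclk1, and Sh2d7 is at 54.9%.

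Among the Axl-/-Mertk-/- mice, the pair with the lowest Sh2d7 levels, male AMDKO_264 and female AMDKO_231, was also the lowest in Trpm5, at 0.173 and 0.221 FPKM, in Rgs13, at 0.253 and 0.422 FPKM, in Bmx, at 0.126 and 0.294 FPKM, and in Avil, at 0.485 and 0.459 FPKM. Both mice lay below the other 4 mutants in each of these genes, but not in Gnat3, Ptgs1 and Dclk1. Male AMDKO_203 had 10 Sh2d7 reads, as many as female AMDKO_231, and did not share this. It was the highest mutant in Trpm5, at 0.473 FPKM, and in Rgs13, at 0.796 FPKM, and had 1.22 FPKM of Avil. The correlation of Sh2d7 with Bmx over the 6 mutants was r = 0.744, with an exact permutation p of 0.0722 and 0.391 after adjustment, and rho was 0.886, with an exact p of 0.0333 and 0.244 after adjustment. Without female AMDKO_219 and male AMDKO_202, the mice farthest from the median of Sh2d7, r was 0.549. With Avil r was 0.679 in the mutants, and with Rgs13 it was 0.687 in WT mice. Neither passed the exact permutation test before adjustment. Sh2d7 thus had no relation to a tuft cell gene within a genotype that held after adjustment over 22 relations (7 for Sh2d7, 1 for each other gene, in 2 genotypes), a family chosen after the values had been seen. By rho a single relation on its own could not hold, because the smallest exact p of 6 mice is too high for 22 relations.

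RefSeq places the start of Sh2d7 4861 bases upstream of the GENCODE start. The 250 bases before this RefSeq start are shown because they share a feature with the window of Cela1, printed in capitals, the letters TATAAA at 27 to 22 bases before the start. The window is chr9:54533873-54534122 on the plus strand of GRCm38.p6, and it reads 5′ to 3′ as follows.
Sh2d7: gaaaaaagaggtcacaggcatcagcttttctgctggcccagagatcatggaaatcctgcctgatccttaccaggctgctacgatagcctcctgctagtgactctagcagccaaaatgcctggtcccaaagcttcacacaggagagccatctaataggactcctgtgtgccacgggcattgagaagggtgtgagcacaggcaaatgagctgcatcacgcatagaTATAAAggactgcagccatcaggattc

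Cela1 encodes an elastase, a serine protease of the digestive family known mainly from the pancreas. It lies on the minus strand of chr15:100674421-100687921 with 8 exons and 1108 exonic bases, none of them shared with another gene. The window before its start, chr15:100687921-100688170 on the minus strand of GRCm38.p6, holds TATAAA at the same distance as in Sh2d7. It also holds CACCTG, the letters of an E-box, at 109 to 104 bases before the start, and TTTCCC at 99 to 94 bases before it. The capitals mark these 3 stretches in the sequence, again 5′ to 3′.
Cela1: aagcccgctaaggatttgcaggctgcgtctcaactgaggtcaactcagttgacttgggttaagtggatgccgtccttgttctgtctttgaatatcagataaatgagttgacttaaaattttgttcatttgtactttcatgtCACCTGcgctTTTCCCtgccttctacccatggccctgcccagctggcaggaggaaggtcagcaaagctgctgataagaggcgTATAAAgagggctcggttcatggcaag

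The 3 motifs were picked after the sequences had been read, and they were searched on both strands in the 250-base windows before 32851 RefSeq starts. TATAAA was found in 12.4% of the windows, CACCTG in 17.2% and TTTCCC in 21.9%, with no overlap between the stretches in Cela1. TATAAA on the strand of the gene between 50 and 16 bases before the start was found in 2.32%. Both windows of Hap1 lacked all 3 letter strings. A match describes the letters of the window, and nothing was measured at these promoters.

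The level of Cela1 in WT mice was 1.22 FPKM at the lowest, 1.70 at the median and 2.10 at the highest. In Axl-/-Mertk-/- mice it was 0.664 FPKM at the lowest, 0.886 at the median and 1.08 at the highest. All 6 mutants lay below all 6 WT mice. The mean was 1.65 ± 0.324 FPKM in WT mice and 0.884 ± 0.132 FPKM in the mutants (SD, n = 6 each), from 32 to 54 and 15 to 25 reads a library. Without male WT_212, the highest WT mouse, the mutant mean was 56.6% of WT. The SD between mice was 1.26 times the counting SD in WT and 0.683 times in Axl-/-Mertk-/- mice.

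Of the 5 genes, Cela1 was the only one with an unadjusted p-value under 0.05 for sex. In WT mice it averaged 1.43 ± 0.272 FPKM in females and 1.87 ± 0.215 FPKM in males, and in Axl-/-Mertk-/- mice 0.803 ± 0.120 FPKM in females and 0.966 ± 0.0960 FPKM in males (SD, n = 3 each). The sexes overlapped in WT mice, whose females reached 1.74 FPKM and whose males began at 1.67 FPKM. They did not overlap in the mutants. The nearest mice there, female AMDKO_231 at 0.878 FPKM and male AMDKO_203 at 0.894 FPKM, had 23 and 19 reads. A gap this small cannot be told from counting error, and the share of the table without overlap of the sexes was not worked out. Males were above females by 0.07 ± 0.02 in log2(FPKM + 5) (SE), with a limma p of 0.0175 that became 0.260 after Benjamini-Hochberg adjustment over the 479 genes. The difference did not pass, and before adjustment 14.4% of the table was under 0.05 for sex.

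Vil1, which encodes the microvillus protein villin, was the only other gene among 19 markers of pancreas, liver and gut to be analysed. It was at 0.940 ± 0.293 FPKM in WT mice and 0.645 ± 0.156 FPKM in the mutants (SD, n = 6 each), 68.7% of WT with overlap. Over 6 mice its correlation with Cela1 was r = 0.557 in WT and 0.165 in Axl-/-Mertk-/- mice, with adjusted exact permutation p-values of 0.601 and 0.935. The digestive enzymes of the acinar pancreas other than Cela1 were not analysed here. The list of markers is not a full one, and genes of the table outside it, such as Reg3b and Afp, were not looked at singly.

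Slc18a1 encodes a vesicular monoamine transporter, which loads amines such as serotonin and catecholamines into the secretory vesicles of endocrine cells. The gene lies on the minus strand of chr8:69037711-69089235 and has 17 exons with 3115 bases, none of them shared with another gene. Its level in WT mice was 0.368 FPKM at the lowest, 0.485 at the median and 0.609 at the highest. In the mutants it was 0.250 FPKM at the lowest, 0.293 at the median and 0.358 at the highest. The genotypes did not overlap, but male WT_210 at 0.368 FPKM and male AMDKO_202 at 0.358 FPKM were neighbours, at 28 and 24 reads. The mean was 0.487 ± 0.0811 FPKM in WT mice and 0.302 ± 0.0385 FPKM in the mutants (SD, n = 6 each). The SD between mice was below the counting SD in both genotypes, at 0.976 and 0.573 times its size, so variation among mice of a genotype was not detectable at this depth.

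Hap1 encodes huntingtin-associated protein, which takes part in vesicle and receptor transport in neurons and endocrine cells. It lies on the minus strand of chr11:100347327-100356128 with 12 exons, none of them shared with another gene. In WT mice its level was 1.37 FPKM at the lowest, 2.08 at the median and 3.33 at the highest. The mutants had 1.13 FPKM at the lowest, 1.31 at the median and 1.61 at the highest. The genotypes overlapped, with male AMDKO_202 at 1.61 FPKM above female WT_214 and male WT_210, and male AMDKO_203 at 1.40 FPKM above male WT_210. The mean was 2.14 ± 0.698 FPKM in WT mice and 1.32 ± 0.173 FPKM in the mutants (SD, n = 6 each). Leaving out male WT_212 brought the mutant mean to 69.7% of WT.

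Hap1 had the most reads of the 5 genes, 93 to 246 in a WT library and 77 to 109 in an Axl-/-Mertk-/- library. The SD between mice was 4.04 times the counting SD in WT and 1.24 times in the mutants, a ratio that grows with the number of reads. Without male WT_212 it was 2.59 in WT mice. The spread left after the counting variance was taken off was 31.7% of the WT mean for Hap1 and 39.4% for Muc15 with all mice. Without male WT_212 it was 20.6% for Hap1, and for Muc15 the SD no longer exceeded the counting SD, at 0.981 times its size. The 3 WT males alone spanned 1.37 to 3.33 FPKM, the whole range of the genotype, so the spread lay within a sex.

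**Figure D3:**
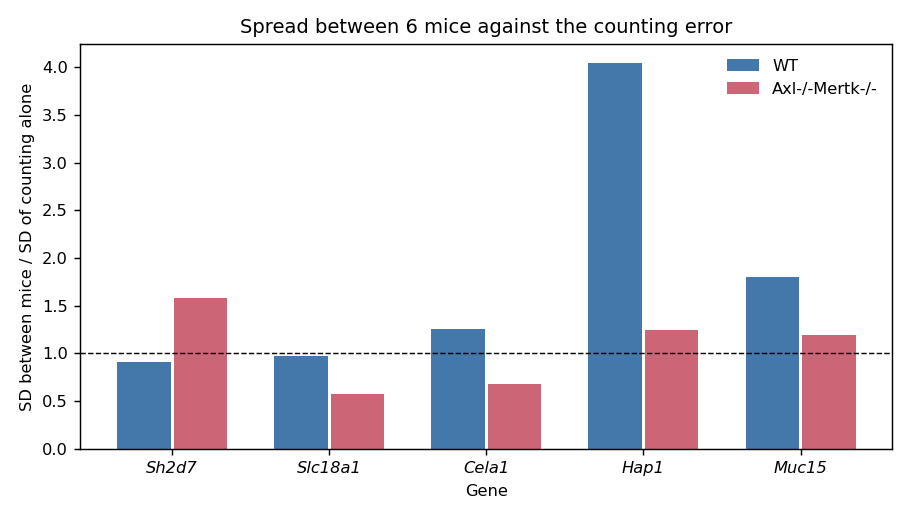
SD of FPKM between the 6 mice of a genotype divided by the SD that counting of reads alone would give (vertical axis, dashed line at 1), for the 5 genes, WT in blue and Axl-/-Mertk-/- in red. The bar of Hap1, the gene with the most reads, reaches 4.04 in WT mice (2.59 without male WT_212), and the other bars lie between 0.573 and 1.80.

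Insm1, a zinc finger transcription factor of neuroendocrine differentiation, was the only other gene among 21 neuroendocrine and neural markers to be analysed. Its level was 1.47 to 2.71 FPKM in WT mice and 1.25 to 1.69 FPKM in the mutants, at 67.9% of WT on the mean and with overlap. In WT mice the correlation with Hap1 was r = 0.945 (n = 6, exact permutation p = 0.0139, adjusted 0.168) and rho was 0.771 (exact p = 0.103, adjusted 0.377). Among the mutants r was 0.900 (n = 6, exact permutation p = 0.0153, adjusted 0.168) and rho was 0.771 (exact p = 0.103, adjusted 0.377). Without the 2 mice farthest from the median of Hap1, r was 0.866 in WT and 0.678 in mutant mice. The adjusted values do not pass 0.05. With any single mouse left out, r remained between 0.914 and 0.979 in WT and between 0.744 and 0.940 in the mutants. Slc18a1, the other neuroendocrine gene, had correlations with Insm1 of 0.279 in WT and 0.624 in Axl-/-Mertk-/- mice, with adjusted exact permutation p-values of 0.935 and 0.565. This list is not a full one either, and genes of the table outside it, such as Pcsk1, were not looked at singly.

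Muc15 encodes a membrane-bound mucin of epithelial surfaces and was the only gene of the 5 with a higher mean level in the mutants. It lies on the plus strand of chr2:110721340-110739527, inside the gene Ano3 on the opposite strand, with which it shares 61 of 3421 exonic bases. In WT mice its level was 0.0970 FPKM at the lowest, 0.178 at the median and 0.364 at the highest. The mutants had 0.283 FPKM at the lowest, 0.380 at the median and 0.549 at the highest. The overlap came from male WT_212, the highest of the WT mice, which lay above males AMDKO_202 and AMDKO_203, while the other 5 WT mice lay below every mutant. The mean was 0.195 ± 0.0924 FPKM in WT mice and 0.391 ± 0.0887 FPKM in the mutants (SD, n = 6 each). Without male WT_212 the mutant mean was 243% of WT.

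The libraries held 6 to 28 Muc15 reads in WT and 20 to 37 in Axl-/-Mertk-/- mice, and the SD between mice was 1.80 and 1.19 times the counting SD, or 0.981 times in WT mice without male WT_212. In females the mutant mean was 266% of WT, from 0.166 ± 0.0619 to 0.443 ± 0.0937 FPKM, and in males 152%, from 0.224 ± 0.123 to 0.340 ± 0.0534 FPKM (SD, n = 3 each). The difference of the genotype effect between the sexes did not pass, with a limma adjusted p-value of 0.962 over the 479 genes.

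Muc15 lies on the chromosome of Mertk, at a distance of 17.96 Mb, with 23 other genes of the table between the 2. Each mutant carries the altered Mertk allele together with the DNA linked to it, so position on this chromosome and genotype cannot be told apart in these mice. How far the linked DNA reaches after backcrossing, and whether it includes Muc15, was not tested. Of the table genes nearest to Muc15, Prrg4 at 5.87 Mb was at 62.0% of WT and Tcp11l1 at 6.01 Mb was at 160% of WT. D430041D05Rik at 6.31 Mb was at 399% and Fsip1 at 7.39 Mb at 49.2% of WT, so 2 of these 4 had a higher and 2 a lower mean. In all, 59 of the 462 table genes that could be placed lie on this chromosome.

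Muc1, another membrane-bound mucin, was the only other gene among 20 markers of mucosal, microfold, ciliated and keratinized epithelium to be analysed. Its mean level was lower in the mutants where that of Muc15 was higher, at 1.42 ± 0.397 FPKM in WT mice and 1.01 ± 0.260 FPKM in the mutants (SD, n = 6 each), 70.6% of WT with overlap. Muc15 and Muc1 had a positive correlation in WT mice, with r = 0.832 (n = 6, exact permutation p = 0.0264, adjusted 0.194) and rho = 0.886 (exact p = 0.0333, adjusted 0.244). In the mutants the correlation was negative, with r = -0.806 (n = 6, exact permutation p = 0.0889, adjusted 0.391). There rho was -1.0, the order of the mice being exactly reversed, with an exact p of 0.00278, the smallest that 6 mice allow, and 0.0611 after adjustment. A single rho on its own could therefore not pass after adjustment over 22 relations, whatever its value. Without the 2 mice farthest from the median of Muc15, r was 0.947 in WT and -0.975 in the mutants. None of these passed after adjustment, and the difference between the genotypes was not tested.

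Among the 5 genes themselves, 10 pairs were compared in each genotype, and 0 of the 20 relations passed the exact permutation test after adjustment, by r or by rho. By rho a single relation on its own could not pass, because the smallest exact p of 6 mice, 0.00278, is too high for 20 relations. Before adjustment Hap1 and Muc15 passed by r in WT mice and by rho in the mutants. In WT mice the pair had r = 0.905 (n = 6, exact permutation p = 0.0236, adjusted 0.472) and rho = 0.714 (exact p = 0.136, adjusted 0.593). Without males WT_210 and WT_212 its r was 0.619, and without male WT_212 alone it was 0.632. Among the mutants Hap1 and Muc15 had an r of -0.770 (n = 6, exact permutation p = 0.0833, adjusted 0.602) and a rho of -0.943 (exact p = 0.0167, adjusted 0.333). Without the 2 farthest mice, female AMDKO_219 and male AMDKO_202, r was -0.846. Of the 10 pairs, 8 had a positive r in WT and 5 in Axl-/-Mertk-/- mice. With 6 mice a genotype, these tests showed no shared order of the mice over the 5 genes.

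**Figure D4:**
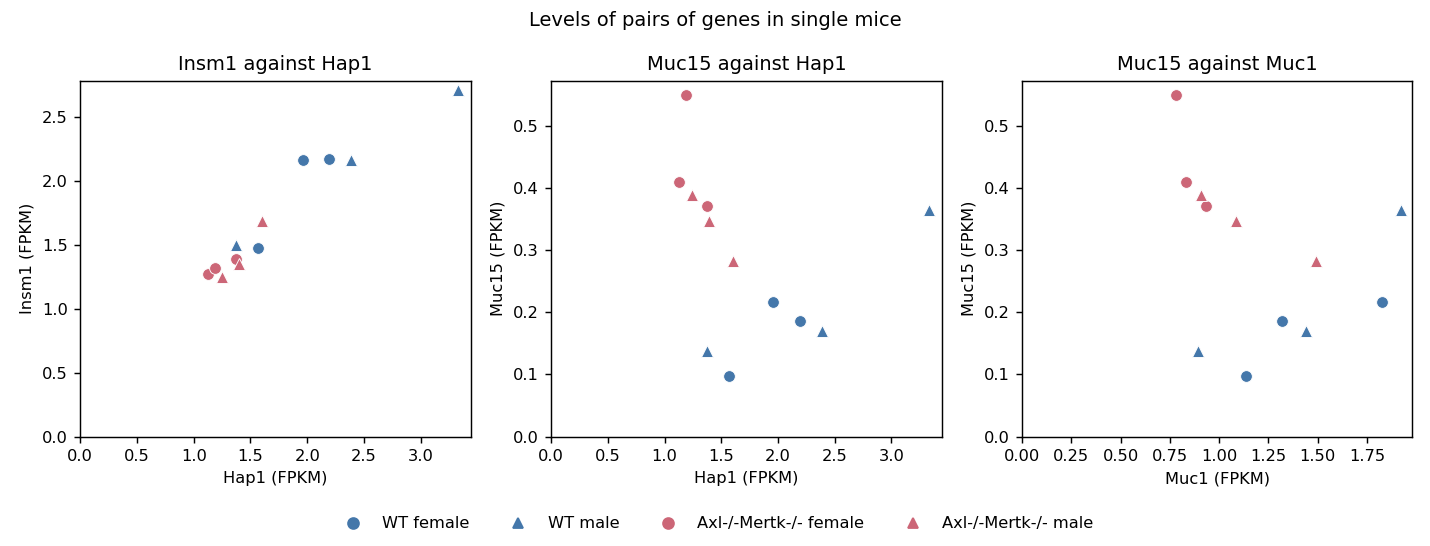
Levels in FPKM of Insm1 against Hap1, Muc15 against Hap1 and Muc15 against Muc1 in each mouse, both axes from 0, WT in blue and Axl-/-Mertk-/- in red, circles for females and triangles for males. For Insm1 and Hap1, r is 0.945 in WT and 0.900 in the mutants, whereas Muc15 has an r of 0.905 with Hap1 and 0.832 with Muc1 in WT mice and of -0.770 and -0.806 in the mutants.

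Single mice took different places from gene to gene. Male AMDKO_202 was the highest mutant in Sh2d7, Slc18a1 and Hap1 and the lowest in Muc15. Female AMDKO_220 was the lowest in Slc18a1 and Cela1 and the highest in Muc15, whereas male AMDKO_264 was the lowest in Sh2d7 and the highest in Cela1. Male WT_212 was the highest WT mouse in Cela1, Hap1 and Muc15 and the third highest in Slc18a1 and Sh2d7.

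The order of the levels within a mouse is given as a description. Hap1 exceeded Cela1 in 4 of 6 WT and in 6 of 6 Axl-/-Mertk-/- mice, and both exceeded the other 3 genes in every mouse. Sh2d7 and Slc18a1 were neighbours that did not separate, with Sh2d7 the higher in 3 of 6 WT and 2 of 6 mutant mice. Muc15 was the lowest of the 5 genes in 6 of 6 WT mice. In the mutants it exceeded Sh2d7 in 5 of 6 mice and Slc18a1 in 5 of 6.

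For the other 4 genes the difference between the sexes did not pass either. The limma difference of males minus females in log2(FPKM + 5) was 0.06 for Hap1 (adjusted p = 0.563), -0.01 for Sh2d7 (0.697), 0.00 for Slc18a1 (0.878) and -0.01 for Muc15 (0.829), after Benjamini-Hochberg adjustment over the 479 genes. No gene of the table passed for sex (0.00%) or for the interaction of sex and genotype (0.00%), and for the interaction 3.13% of the table and 0 of the 5 were under 0.05 before adjustment. With the 3 males of each genotype alone, Cela1 was the only one of the 5 to pass for genotype, beside 41.1% of the table, and the genotypes did not overlap in 2 of the 5 and in 70.6% of the table. With the females alone, 5 of the 5 and 53.7% of the table passed, and the genotypes did not overlap in 5 of the 5 and in 78.5% of the table.

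To see which genes resembled each of the 5 most, deviations from the genotype means of log2(FPKM + 5) were correlated over the 12 mice with those of the other 478 genes, as a description without a test. All points share their libraries and their depth. The closest genes are the highest of 478 values of r, and how high such values reach by chance was not tested. Hap1 was closest to Insm1 (r = 0.939), the chromatin remodeller Chd7 (0.923) and Skint8 (0.917), against a median of 0.359 over the 478 genes. Cela1 was closest to the receptor gene Pilrb2 (0.924), the glycolytic enzyme gene Aldoc (0.867) and the ficolin gene Fcna (0.835), against a median of 0.287. Slc18a1 was closest to Grifin (0.891), the potassium channel gene Kcnh6 (0.756) and the corepressor gene Tle2 (0.754), against a median of 0.132. Within the genotypes, r with Slc18a1 was 0.921 in WT and 0.011 in mutant mice for Kcnh6, 0.869 and 0.387 for Tle2, and 0.918 and 0.957 for Grifin. The SD of Slc18a1 between mice was 0.976 times the counting SD in WT and 0.573 times in mutant mice. For Sh2d7 it was 0.912 and 1.58 times, and for Cela1 1.26 and 0.683 times. For Hap1 and Muc15 it was above the counting SD in both genotypes with all mice. Among the mutants it fell to 0.851 times for Hap1 without male AMDKO_202 and to 0.684 times for Muc15 without female AMDKO_220. In WT mice without male WT_212 it was 2.59 times for Hap1 and 0.981 times for Muc15. Whether the r values of any of the 5 genes hold more than counting error was not tested.

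For Muc15 the closest genes were the natural killer receptor gene Klra7 (0.829), the ubiquitin ligase gene Trim63 (0.754) and Dclk1 (0.725), against a median of 0.077. Without male WT_212 these r values fell to 0.673, 0.553 and 0.488. For Sh2d7 they were the chemokine gene Pf4 (0.715), Stra6l (0.663) and Plekhh1 (0.655), against a median of -0.01. None of these 3 was among the 3 closest to Sh2d7 with log2(FPKM + 0.1) or with sex means removed, whereas Insm1 was the closest to Hap1 in both cases. Genes with a positive r within the genotypes could differ between them in the opposite direction. The mean of Aldoc was 151% of WT in the mutants where that of Cela1 was 53.6%, and the mean of Pf4 was 365% where that of Sh2d7 was 54.9%.

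Markers of other cells of the thymus also differed in mean level between the genotypes. Of 16 macrophage markers 10 were analysed, of which 8 were lower and 2 higher in the mutants. Axl, which is mutated in these mice, is 1 of the 8, so its lower level was fixed by the genotype. With Axl included, the 10 summed to 144 to 223 FPKM in WT mice and 83.1 to 132 FPKM in the mutants. Most of the sum was C1qa and Vcam1, with means of 84.4 and 51.0 FPKM in WT and 59.6 and 31.0 FPKM in mutant mice. The 3 dendritic cell genes analysed, Ccl22, Ccl17 and Cd209a, summed to 31.0 to 60.5 FPKM in WT and 21.1 to 30.9 FPKM in the mutants. Most of this sum was Ccl22, with means of 40.3 and 22.1 FPKM, and the genotypes overlapped in Ccl17 and in Cd209a. By flow cytometry the paper found the frequency of dendritic cell subsets in the thymus unaffected by the mutations. Of 2 stromal genes, Pdgfra was at 69.2% and Acta2 at 159% of WT, and of 15 thymocyte genes the only one analysed, Foxp3, was at 53.1%. None of 7 markers of B and plasma cells was among the genes. The part of these cells in the levels of the 5 genes was not tested.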

How the data were processed

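Polyadenylated RNA of 12 thymuses was made into stranded libraries and sequenced as single reads of 50 bases. Per the submitters' processing notes, CASAVA 1.8.2, FastQC, STAR 2.5.3a, HOMER 4.10.4 and mm10 were used. The authors counted reads over exons, scaled them to FPKM and deposited log2 values, which are log2(FPKM + 5) of 479 genes. The rule that selected these genes and the use of strand in counting are not given in the sources used here. FPKM were recovered with 3 decimals by undoing the logarithm.

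Genotype, sex and their interaction were fitted with limma 3.58.1 (R 4.3.3) on the deposited scale, and p-values were adjusted by Benjamini-Hochberg over the whole table of 479 genes. Correlations within a genotype used two-sided exact permutation tests. Depth was fitted to the steps of 424 genes outside the 5 and the marker lists, and reads were obtained with a fitted transcript length, after which all values of the 5 genes lay within 0.1 of whole numbers. Ranges of reads run from the lowest to the highest library. They hold differences between mice and in depth as well as counting error. Mice are the replicates. Both tests were tested on simulated data. Genes named are the 5, Axl, listed markers of epithelial types and the 3 genes most like each of the 5. Other markers and the neighbours of Muc15 were named after their values had been seen. The genes, lists and tests were chosen with earlier results of these data known. Promoter windows are those of RefSeq (GRCm38.p6), which matched 3 of the 5 genes.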

Additional observations from a re-analysis of the deposited data

Results flagged for a closer look

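Insm1 stood at 1.69 FPKM in male AMDKO_202, the highest of the 6 mutants, and its gap to the next mouse was 0.686 of the range of the group, above Dixon's 95% critical value of 0.625. The other 5 mutants lay between 1.25 and 1.39 FPKM. Of 32 groups of 6 mice examined, for 16 genes in 2 genotypes, this was the only one, and chance alone marks about 1 in 20 groups. The same mouse was the highest mutant in Hap1, and the correlation of Hap1 and Insm1 in the mutants was 0.900 with this mouse and 0.744 without it.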

How the results depend on the processing

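All 5 genes passed for genotype with each mouse left out in turn, without the sex covariate, with an intensity trend and with constants of 1 and 0.1, settings in which 88.1% to 99.8% of the table passed too. With a minimum mean of 1 FPKM the number was 2, since Cela1 and Hap1 alone were left (98.1% of the genes left passed), and with the males alone it was 1 (41.1% of the table). Past both thresholds the number was 5 with a constant of 0.1 against 0. The genotypes did not overlap in 5 genes among the females alone against 2 (78.5% and 39.0% of the table), and in 2 to 3 with single mice left out (40.7% to 46.6%), 3 without male WT_212 (Muc15) or without male AMDKO_202 (Sh2d7). Of the 15 most alike genes, 7 kept their place among the 3 closest with log2(FPKM + 0.1) and 6 with sex means removed. The cause was not tested. For sex, no alternative made any of the 5 pass, and the adjusted limma p-value of Cela1 ranged from 0.169 to 0.404. Differences near 0 changed sign with single mice left out. The sex difference ranged from -0.0036 to 0.0104 for Slc18a1 and from -0.0169 to 0.0027 for Muc15. The interaction ranged from -0.0052 to 0.0291 for Sh2d7, from -0.0135 to 0.0182 for Slc18a1 and from -0.1427 to 0.0506 for Hap1, the last without male WT_212. No paired analysis was possible because mouse numbers are unique to a genotype. Sh2d7, Slc18a1 and Muc15 rest on 6 to 44 reads a library, which limits what their spread can show.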
